A study of Mus musculus with 17 samples.

Results

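The glutathione S-transferases described here were 10 genes, chosen from this family with earlier results of the same libraries known, out of 41033 genes counted once 355 ribosomal RNA genes were set aside. Each of the 10 symbols matched 1 gene identifier. The 10 were Gstm1, Gstm2, Gstm4 and Gstm5 of the mu class, Gsta3 of the alpha class, Gstk1 of the kappa class, Gstp1 of the pi class, Gsto1 of the omega class, and the membrane-bound Mgst1 and Mgst3. RNA from mouse bone marrow macrophages (BMMs) was sequenced with and without RANKL, the cytokine that drives macrophages toward the osteoclast. Bap1flox mice carried both Bap1 alleles flanked by loxP sites and no Cre. Bap1LysM mice carried the same alleles with Cre expressed from the Lyz2 locus, which is active in myeloid cells, so that the deubiquitinase gene Bap1 was deleted there and not in all cells of the marrow. BMMs grown in M-CSF alone gave 3 Bap1flox and 3 Bap1LysM libraries. BMMs given M-CSF and RANKL at 100 ng/ml for 24 h, here called preosteoclasts (preOCs), gave 6 Bap1flox and 5 Bap1LysM libraries. The preOCs came from male mice aged 20 weeks. The RANKL used was made as a fusion with glutathione S-transferase protein, which adds no mouse transcript.

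Glutathione S-transferases join the tripeptide glutathione to electrophiles such as lipid peroxidation products, quinones and drugs, and the conjugates are then exported and broken down to mercapturates. The cytosolic mu, alpha, pi and omega enzymes are soluble dimers, the kappa enzyme sits in mitochondria and peroxisomes, and the microsomal enzymes are integral membrane proteins that also reduce lipid hydroperoxides. Osteoclast formation is accompanied by production of reactive oxygen species, and glutathione enzymes take part in their removal in macrophages.

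All 10 genes passed the expression filter in every comparison, although Gstm5 and Gstk1 did so through the Bap1LysM BMMs alone for RANKL in Bap1LysM cells and through the Bap1flox preOCs alone between preOC genotypes. The total count was 37967542 to 61369441 reads per library. A level is given below as CPM (read counts scaled to library size), with TMM factors over the 17 libraries, and as CPM per kb where genes are compared. The count of Bap1 covers the whole gene and does not isolate the deleted exons. It stood at 84.2 to 87.4 CPM in Bap1flox BMMs, 76.8 to 83.8 CPM in Bap1LysM BMMs, 71.9 to 89.2 CPM in Bap1flox preOCs and 57.5 to 82.3 CPM in Bap1LysM preOCs. Lyz2, the lysozyme gene that holds the Cre, was at 0.148% to 0.473% of the Bap1flox mean in 6 Bap1LysM libraries. It was at 45.3% in the BMM library labelled Bap1LysM 1 and at 79.7% in the preOC library labelled Bap1LysM 1. The paper describes the mice with Cre as heterozygous for it. A heterozygous mouse keeps a Lyz2 allele without the Cre. Whether each library has that genotype was not tested, and neither set of libraries is taken here as the deviant one. In the 6 libraries, near absence of Lyz2 went together with the Bap1LysM genotype, and its part in the values was not tested. Fold changes of the members that rest on the 2 libraries labelled Bap1LysM 1 are also given without them. The exceptions are Gstm4 and Gsto1 for RANKL in Bap1LysM cells, whose values without both are not given. Osteoclast marker genes summed to 238 to 384 CPM in the BMMs and 6050 to 16500 CPM in the preOCs, and macrophage marker genes to 8750 to 12100 CPM in the BMMs and 3710 to 5810 CPM in the preOCs. In bulk RNA, fewer cells of a type and less RNA per cell cannot be told apart.

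The 4 mu genes lie together on chromosome 3 of GRCm38. Gstm5 spans chr3:107895821-107898686 on the plus strand, Gstm2 chr3:107981702-107986453 on the minus strand, Gstm1 chr3:108012255-108017973 on the minus strand and Gstm4 chr3:108040408-108044894 on the minus strand. Gsta3 lies at chr1:21240589-21265661 on the plus strand and Mgst3 at chr1:167371966-167393841 on the minus strand. Gstk1 lies at chr6:42245935-42250441 and Mgst1 at chr6:138140316-138156755, both on the plus strand. Gstp1 lies at chr19:4035407-4037921 on the minus strand and Gsto1 at chr19:47854970-47864790 on the plus strand. These are whole-gene spans, and each value is the sum over the exons of the gene model.

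The upstream sequences of the genes whose levels differed most between genotypes in BMMs, with that of Gstp1, whose BMM libraries overlapped between genotypes, are shown with their motif matches. Each is the stretch from 250 to 36 bases before the RefSeq start site (GRCm38.p6), written on the strand of the gene, 5′ to 3′. Capitals mark a match on either strand to TGACNNNGC (the core of the antioxidant response element), TGANTCA (an AP-1 site) or GGGCGG (a GC box).
Gstm5, chr3:107895604-107895818, plus strand: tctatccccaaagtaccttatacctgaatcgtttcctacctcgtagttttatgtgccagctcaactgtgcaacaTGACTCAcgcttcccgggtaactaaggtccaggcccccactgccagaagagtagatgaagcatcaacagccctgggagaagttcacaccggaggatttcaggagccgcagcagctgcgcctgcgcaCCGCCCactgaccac
Gstm4, chr3:108044895-108045109, minus strand: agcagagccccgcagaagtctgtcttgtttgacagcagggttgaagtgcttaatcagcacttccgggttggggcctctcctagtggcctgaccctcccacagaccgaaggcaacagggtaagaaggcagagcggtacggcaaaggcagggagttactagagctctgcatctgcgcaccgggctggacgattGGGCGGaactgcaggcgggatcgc
Gstm2, chr3:107986456-107986670, minus strand: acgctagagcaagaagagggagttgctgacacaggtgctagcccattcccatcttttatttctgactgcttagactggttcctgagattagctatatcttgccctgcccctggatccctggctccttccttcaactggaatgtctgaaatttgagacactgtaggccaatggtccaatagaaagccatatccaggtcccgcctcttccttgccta
Gstk1, chr6:42245685-42245899, plus strand: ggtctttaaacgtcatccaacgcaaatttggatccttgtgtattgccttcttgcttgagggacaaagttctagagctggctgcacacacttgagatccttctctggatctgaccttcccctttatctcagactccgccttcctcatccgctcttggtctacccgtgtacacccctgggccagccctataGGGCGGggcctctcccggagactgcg
Gsta3, chr1:21240335-21240549, plus strand: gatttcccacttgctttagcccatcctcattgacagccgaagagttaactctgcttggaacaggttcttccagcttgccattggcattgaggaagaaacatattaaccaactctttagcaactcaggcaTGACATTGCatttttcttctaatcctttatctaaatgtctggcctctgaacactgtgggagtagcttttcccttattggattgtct
Gstp1, chr19:4037948-4038162, minus strand: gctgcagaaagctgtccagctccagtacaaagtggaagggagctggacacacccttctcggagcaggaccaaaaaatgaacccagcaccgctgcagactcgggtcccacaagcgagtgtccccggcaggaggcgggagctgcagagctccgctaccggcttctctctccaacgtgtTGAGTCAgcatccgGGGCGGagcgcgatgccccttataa

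All 10 members matched the RefSeq promoter table, with 13 entries. Over the same 215 bases, TGACNNNGC was found in 8.46% of the 32851 promoters of the table, and among the members in Gsta3 and in 1 of 2 entries of Mgst1. TGANTCA, which reads the same on both strands, was found in 5.97% of all promoters and in Gstm5 and Gstp1. GGGCGG was found in 27.7% of all promoters and in Gstm4, Gstm5, Gstk1 and Gstp1. CACGTG was present in 4.84% of all promoters, TATAAA in 9.75% and TTGCGCAA in 0.146%, and none of these was in a member's entry. The stretch searched ended 36 bases before the start site, so a TATAAA nearer to the start could not be seen. No match of a motif overlapped one of another motif. The Gstm2 window held none of the 6 motifs. These matches describe letters in a window and were not tested as sites.

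Per kb of gene model, Gstm1 was first and Gstm5 last of the 10 genes in every group by their means. Other places shifted, and Mgst1 went from place 2 in BMMs to place 5 in preOCs. In Bap1flox BMMs Gstm1 stood first, at 337 ± 38.6 CPM per kb (SD, n = 3), followed by Mgst1 at 71.9 ± 7.28, Gsto1 at 44.4 ± 4.24, Gstp1 at 42.1 ± 6.86 and Mgst3 at 27.1 ± 2.94 CPM per kb. Gstm2, Gsta3, Gstm4 and Gstk1 lay close together, from 9.87 ± 2.84 down to 7.47 ± 0.655 CPM per kb, and Gstm5 was last at 5.95 ± 0.832 CPM per kb. Gsto1 and Gstp1 overlapped over their libraries, as did each neighbouring pair from Gstm2 to Gstk1, and the other neighbours in the order did not. In Bap1LysM BMMs Gstm1 was again first, at 209 ± 56.2 CPM per kb (SD, n = 3), Gsta3 stood clear of Gstm2 at 16.8 ± 4.92 CPM per kb, and Gstm5 was last at 1.43 ± 0.369 CPM per kb. In preOCs Gstm1 and Gsto1 led and overlapped, at 90.3 ± 25.0 and 72.8 ± 9.45 CPM per kb in Bap1flox (SD, n = 6) and at 91.7 ± 36.3 and 79.9 ± 15.5 CPM per kb in Bap1LysM cells (SD, n = 5). Gsta3 was at 3.32 ± 0.952 CPM per kb in Bap1flox and 12.2 ± 2.91 CPM per kb in Bap1LysM preOCs. The low members were Gstk1 and Gstm5, at 1.19 ± 0.940 and 0.539 ± 0.318 CPM per kb in Bap1LysM preOCs, where they overlapped each other.

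**Figure D1:**
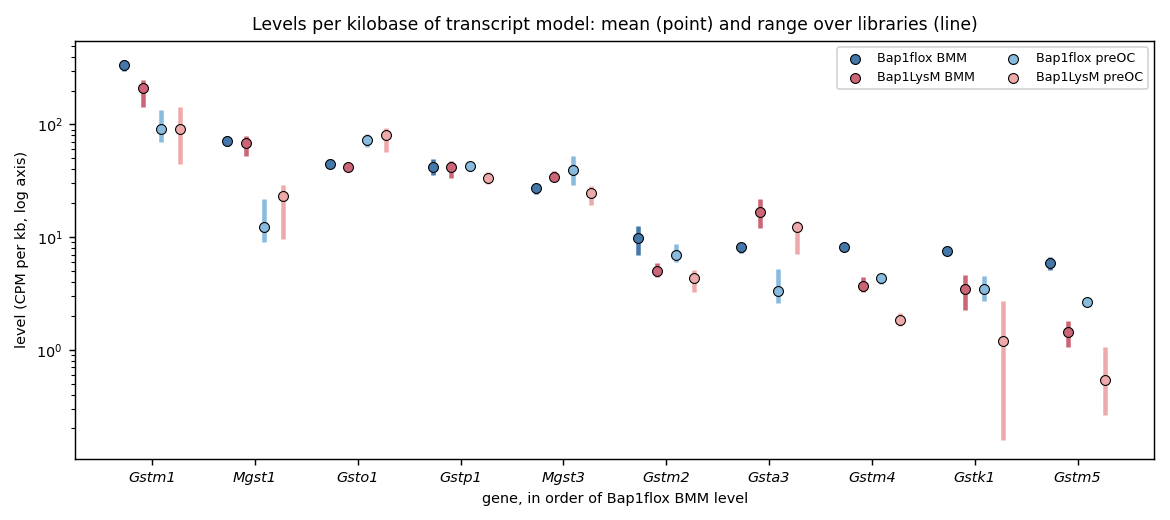
Level of each gene in CPM per kb of gene model (log axis), with the mean over libraries as a point and the range as a line, for 3 Bap1flox BMM, 3 Bap1LysM BMM, 6 Bap1flox preOC and 5 Bap1LysM preOC libraries. Gstm1 was highest in every group by its mean, and Gstm5 was lowest, at 0.539 CPM per kb in Bap1LysM preOCs.

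Deletion of Bap1 was first compared in BMMs, where no RANKL had been given. Gstm5 and Gstm4 fell in Bap1LysM BMMs, to a level 4.18-fold and 2.18-fold below Bap1flox, and Gsta3 rose 2.06-fold. Of the 10 genes, 2 passed the test as lower and 1 as higher, where 4.01% and 1.31% of the 13028 genes tested did so. All of these were among the members chosen from the comparison of preOC genotypes. BMM and preOC libraries of the same number departed from their groups together, with correlations of 0.23 to 0.37 in Bap1flox and 0.50 and 0.35 in Bap1LysM cells. Member counts and medians between BMM genotypes, here and below, are therefore not independent of that choice, and nothing is read from them. The median log2 fold change of the 10 was -0.40 and that of all genes -0.01. Tests were run with the quasi-likelihood F test of edgeR on 3 libraries against 3, and p-values were adjusted by Benjamini and Hochberg's method over all genes.

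Gstm5, a mu enzyme, was counted at 6.46, 7.78 and 8.56 CPM in the 3 Bap1flox BMM libraries and at 2.30, 1.83 and 1.35 CPM in the 3 Bap1LysM libraries. The highest Bap1LysM library was below the lowest Bap1flox library. The log2 fold change was -2.06 with a standard error of 0.24 (edgeR adjusted p = 0.0148).

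Gstm4, its neighbour at the other end of the cluster, was at 14.6, 12.7 and 14.1 CPM in Bap1flox BMMs and at 5.86, 5.57 and 7.60 CPM in Bap1LysM BMMs. Again the groups did not overlap. The log2 fold change was -1.13, standard error 0.15 (edgeR adjusted p = 0.0183).

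Gsta3, the alpha enzyme known in mice for detoxifying aflatoxin epoxide, went the other way. Its level was 37.4, 36.6 and 31.7 CPM in Bap1flox BMMs and 71.9, 51.9 and 94.6 CPM in Bap1LysM BMMs. Every Bap1LysM library was above every Bap1flox library, although the Bap1LysM libraries were spread over a wider range. The log2 fold change was 1.04, standard error 0.20 (edgeR adjusted p = 0.0409).

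Gstm2, Gstm1 and Gstk1 did not pass at 0.05, although their groups did not overlap. Gstm2 was at 11.7, 21.3 and 16.8 CPM in Bap1flox and 7.47, 7.77 and 9.92 CPM in Bap1LysM BMMs, a log2 fold change of -0.99, standard error 0.23 (edgeR adjusted p = 0.0596). Gstm1 was at 524, 416 and 470 CPM against 329, 201 and 343 CPM, a log2 fold change of -0.70, standard error 0.20 (edgeR adjusted p = 0.0914). Gstk1, the kappa enzyme of mitochondria, was at 7.62, 6.44 and 6.78 CPM against 4.30, 2.11 and 3.17 CPM, a log2 fold change of -1.13, standard error 0.26 (edgeR adjusted p = 0.0591). With the replicate number as a block these 3 genes passed as well, at adjusted p = 0.0244 for Gstm2, 0.0197 for Gstm1 and 0.0198 for Gstk1 in edgeR, so that 6 of the 10 passed where 16.2% of all genes did.

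The other 4 members did not pass in BMMs, with or without the block. Mgst3 was at 30.1, 32.7 and 26.3 CPM in Bap1flox and 34.9, 42.6 and 34.8 CPM in Bap1LysM BMMs, a log2 fold change of 0.33 (edgeR adjusted p = 0.166). Its groups did not overlap, which brought the genes without overlap to 7 of 10, where 34.2% of all genes tested had none. Gstp1, Gsto1 and Mgst1 overlapped between the genotypes and had log2 fold changes of 0.00, -0.09 and -0.08.

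The BMM calls rested on few libraries. Without the BMM library labelled Bap1LysM 1, the log2 fold change was -2.26 for Gstm5 and -1.08 for Gstm4 (edgeR adjusted p = 0.0213 and 0.0427), Gstk1 passed at -1.40 (edgeR adjusted p = 0.0436) and Gsta3, at 1.05, did not (edgeR adjusted p = 0.0791). Gstm1 and Gstm2 were then at -0.80 and -0.91 (edgeR adjusted p = 0.120 and 0.127), Mgst3 at 0.38, Gstp1 at 0.14, Mgst1 at -0.14 and Gsto1 at -0.09. None of the 10 passed without Bap1flox BMM 2 or without Bap1flox BMM 3, settings in which 7 and 4 genes of the whole table passed, and only Gsta3 passed without Bap1LysM BMM 2. The directions of these 6 genes did not change in any of the 6 fits. Stromal marker genes, which summed to 476, 2390 and 2730 CPM in Bap1flox BMMs and 356, 944 and 1280 CPM in Bap1LysM BMMs, differed between the same libraries: of 7 genes, Lum was at 0 in all 6 and Col1a1 reached 1520 CPM. Neutrophil marker genes summed to 75.6 to 245 CPM and 214 to 313 CPM, and B and plasma cell marker genes to 92.4 to 115 CPM and 36.4 to 113 CPM. The part of these lists in the BMM values was not tested.

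**Figure D2:**
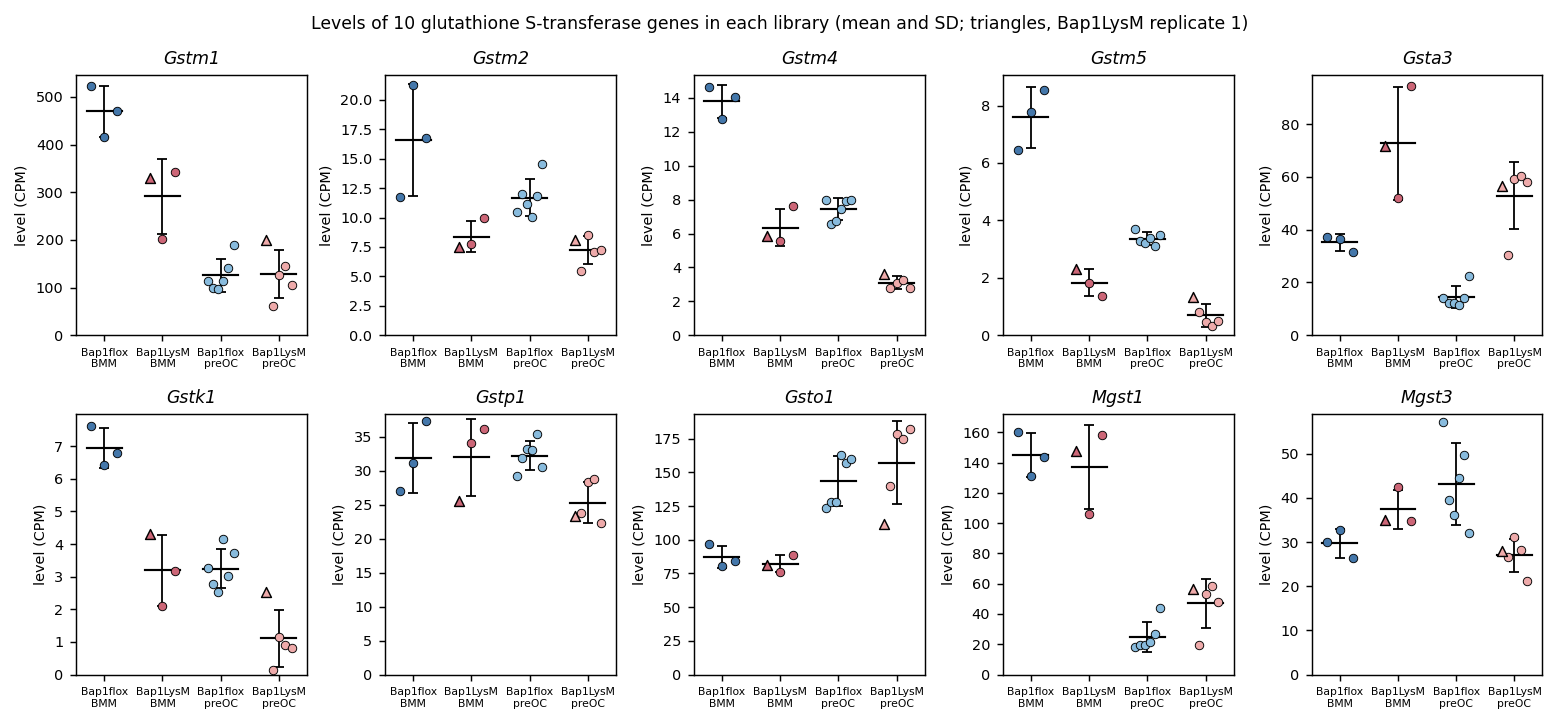
Level in CPM (axes start at 0) of the 10 genes in each of the 17 libraries, with the mean and SD of each group. Triangles are the libraries labelled Bap1LysM 1. Gstm4 and Gstm5 of Bap1LysM cells lie below Bap1flox cells in BMMs and in preOCs, and Gsta3 lies above.

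RANKL was compared next within Bap1flox cells, replicates 1 to 3 of each, which asked how the family moves on the way to the osteoclast when Bap1 is intact. Of the 10 genes, 7 fell and 2 rose, and only Gstp1 did not pass. Both RANKL comparisons use preOC libraries of the genotype comparison from which 6 members (Gsta3, Gstm5, Gstk1, Gstm4, Gstm2 and Mgst3) were chosen, so their tests of these 6 are not independent of that choice. Of all 13415 genes tested, 32.9% were lower and 31.7% higher, so a call as such was common here. The median log2 fold change was -1.08 over the 10 and -0.05 over all genes. B and plasma cell marker genes summed to 92.4 to 115 CPM in Bap1flox BMMs and 5.87 to 13.5 CPM in Bap1flox preOCs 1 to 3. In the same libraries dendritic cell marker genes summed to 23.3 to 31.1 CPM and 40.4 to 65.6 CPM, and stromal marker genes to 476 to 2730 CPM and 1110 to 1920 CPM. Their part in the RANKL values was not tested.

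The largest fall was of Mgst1, the membrane enzyme that guards the outer mitochondrial membrane and the endoplasmic reticulum. Mgst1 was at 160, 131 and 144 CPM in BMMs and at 18.2, 19.8 and 19.5 CPM in preOCs. All 3 preOC libraries were far below all BMM libraries, a 7.68-fold fall with a log2 fold change of -2.94, standard error 0.09 (edgeR adjusted p = 2.77e-06). Gstm1, the most abundant member, went from 524, 416 and 470 CPM to 113, 98.6 and 97.9 CPM, a log2 fold change of -2.21, standard error 0.11 (edgeR adjusted p = 1e-05). The groups did not overlap. The summed level of the 10 genes was 776 to 915 CPM in Bap1flox BMMs, and Gstm1 made up 53.6% to 57.2% of it. In the 3 preOC libraries the sum was 350 to 381 CPM, of which Gstm1 made up 27.8% to 29.7%.

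Gsta3 fell from 31.7 to 37.4 CPM in BMMs to 14.2, 12.3 and 12.1 CPM in preOCs, a log2 fold change of -1.48, standard error 0.11 (edgeR adjusted p = 3.86e-05). Gstk1 reached 3.27, 2.77 and 2.54 CPM, a log2 fold change of -1.30, standard error 0.16 (edgeR adjusted p = 0.000364). Gstm5 reached 3.71, 3.28 and 3.21 CPM, a log2 fold change of -1.18, standard error 0.16 (edgeR adjusted p = 0.000526). Gstm4 reached 7.99, 6.55 and 6.76 CPM, a log2 fold change of -0.98, standard error 0.12 (edgeR adjusted p = 0.000392). None of these 4 overlapped its BMM libraries, and each passed whichever single library was left out.

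Gstm2 was the exception within the mu class. It reached 10.5, 11.99 and 11.2 CPM, of which 11.99 CPM overlapped its BMM libraries, which began at 11.7 CPM. Its log2 fold change of -0.58, standard error 0.20 (edgeR adjusted p = 0.040) passed in 1 of 6 fits that left out a library, that without Bap1flox BMM 1. Without BMM 2 it was -0.33.

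The members that rose were Gsto1 and Mgst3. Gsto1, the omega enzyme that reduces dehydroascorbate, went from 96.7, 80.8 and 84.4 CPM to 123, 128 and 128 CPM. Its groups did not overlap, with a log2 fold change of 0.51, standard error 0.08 (edgeR adjusted p = 0.00114). Mgst3, which has peroxidase activity and can make leukotriene C4, went from 30.1, 32.7 and 26.3 CPM to 57.2, 39.5 and 36.02 CPM. The log2 fold change was 0.56, standard error 0.19 (edgeR adjusted p = 0.0334), and it did not pass without BMM 3 (0.49, edgeR adjusted p = 0.0855). Without preOC 1, its highest library, Mgst3 still passed, at 0.32. Gstp1 was at 27.1, 31.2 and 37.4 CPM in BMMs and 29.3, 31.9 and 33.3 CPM in preOCs, a log2 fold change of -0.04, standard error 0.12.

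RANKL in Bap1LysM cells was compared over 2 preOC and 3 BMM libraries. Mgst1 and Gstm4 fell and Gsto1 rose, where 8.2% of 12998 genes were lower and 11.4% higher. These were 3 of the 8 members that did not need their higher group to reach the filter. Gstm4 was among those chosen partly by its low level in these preOC libraries, and nothing is read from its call.

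Mgst1 was at 148, 106 and 158 CPM in Bap1LysM BMMs and at 56.5 and 19.3 CPM in preOCs 1 and 2, a log2 fold change of -1.86, standard error 0.47 (edgeR adjusted p = 0.0438). Gstm4 was at 5.86, 5.57 and 7.60 CPM and then at 3.63 and 2.77 CPM, a log2 fold change of -0.99, standard error 0.26 (edgeR adjusted p = 0.0487). Gsto1 was at 81.3, 76.4 and 88.8 CPM and then at 112 and 140 CPM, a log2 fold change of 0.61, standard error 0.14 (edgeR adjusted p = 0.0375). In all 3 genes the groups did not overlap, and in all 3 the second preOC library stood further from the BMMs than the library labelled Bap1LysM 1.

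These 2 preOC libraries differed most in Gstk1, at 2.53 CPM (128 reads) in the library labelled Bap1LysM 1 and 0.148 CPM (6 reads) in Bap1LysM 2. Gstm1 was at 199 and 61.9 CPM in the same libraries, after 329, 201 and 343 CPM in BMMs. With all 5 libraries Gstk1 had a log2 fold change of -1.24, standard error 0.96, and Gstm1 of -1.16, standard error 0.51 (edgeR adjusted p = 0.395 and 0.160). Without both libraries labelled Bap1LysM 1, a setting added after the data were seen, Gstk1 was at -4.12, Gstm1 at -2.12, Mgst1 at -2.76 and Gsta3 at -1.25 (edgeR adjusted p = 0.00276, 0.000522 and 0.0263 for the last 3), and Gstm4 and Gsto1 still passed. Gstm5, Gstm2, Gstp1 and Mgst3 were at -0.95, -0.69, -0.55 and -0.52 and did not pass. The Gstk1 value there rests on 6 reads in a single preOC library. The fit assumes that this lone library varies as the BMM libraries do. No member passed without preOC 2, nor without any 1 of the 3 BMM libraries. The replicate block could be fitted only without BMM 3, which has no preOC partner, on 2 libraries against 2. On these 4 libraries Gstm1 had an edgeR adjusted p of 0.335 without the block and 0.0328 with it, and Gstm4 of 0.154 and 0.0754.

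**Figure D3:**
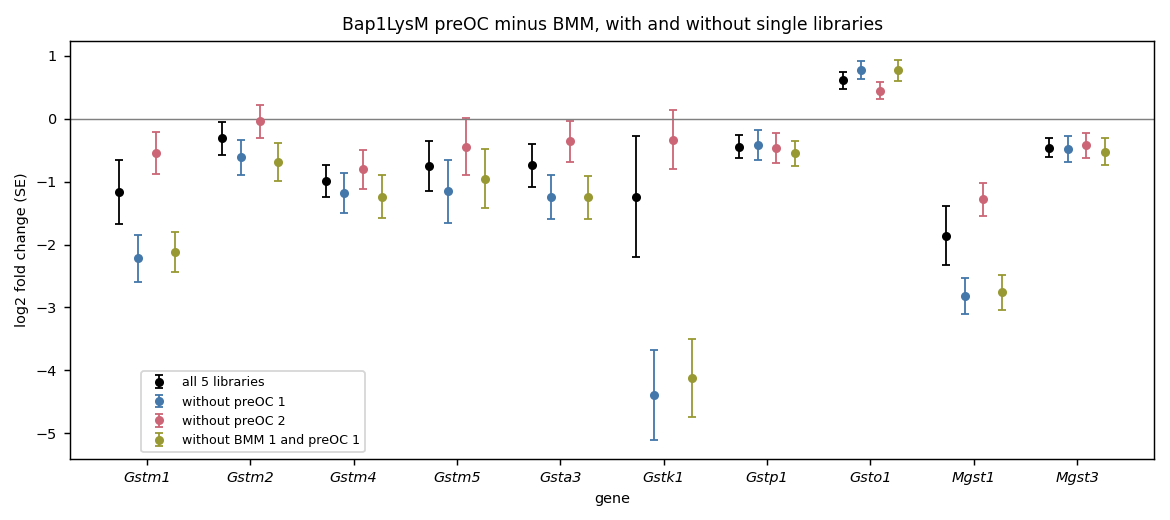
Log2 fold change and standard error of preOC over BMM in Bap1LysM cells, with all 5 libraries and without named libraries. Gstk1 moves from -1.24 with all libraries to -4.39 without preOC 1 and -0.33 without preOC 2, while Gsto1 stays between 0.45 and 0.78.

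The RANKL values of the genotypes, side by side, were -2.94 and -1.86 for Mgst1, -2.21 and -1.16 for Gstm1, -1.48 and -0.74 for Gsta3, -1.18 and -0.75 for Gstm5, -0.98 and -0.99 for Gstm4, and 0.51 and 0.61 for Gsto1, Bap1flox first. Mgst3 was the member with opposite signs. It was at 34.9, 42.6 and 34.8 CPM in Bap1LysM BMMs and at 28.0 and 26.7 CPM in the preOCs, a log2 fold change of -0.46 (edgeR adjusted p = 0.0854) against 0.56 in Bap1flox cells. In neither genotype did the BMM libraries overlap the preOC libraries of this comparison, replicates 1 to 3. Bap1flox preOC 6, outside it, was at 32.02 CPM, below Bap1flox BMM 2 at 32.7 CPM. The difference between the genotypes in the RANKL response was not tested, since it contains the preOC comparison from which members were chosen. The macrophage marker sum of the 2 Bap1LysM preOC libraries was 5420 and 3770 CPM and their osteoclast marker sum 6050 and 16500 CPM, against 3710 to 3890 CPM and 6660 to 12300 CPM in Bap1flox preOCs 1 to 3, and the part of these in the fold changes was not tested.

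**Figure D4:**
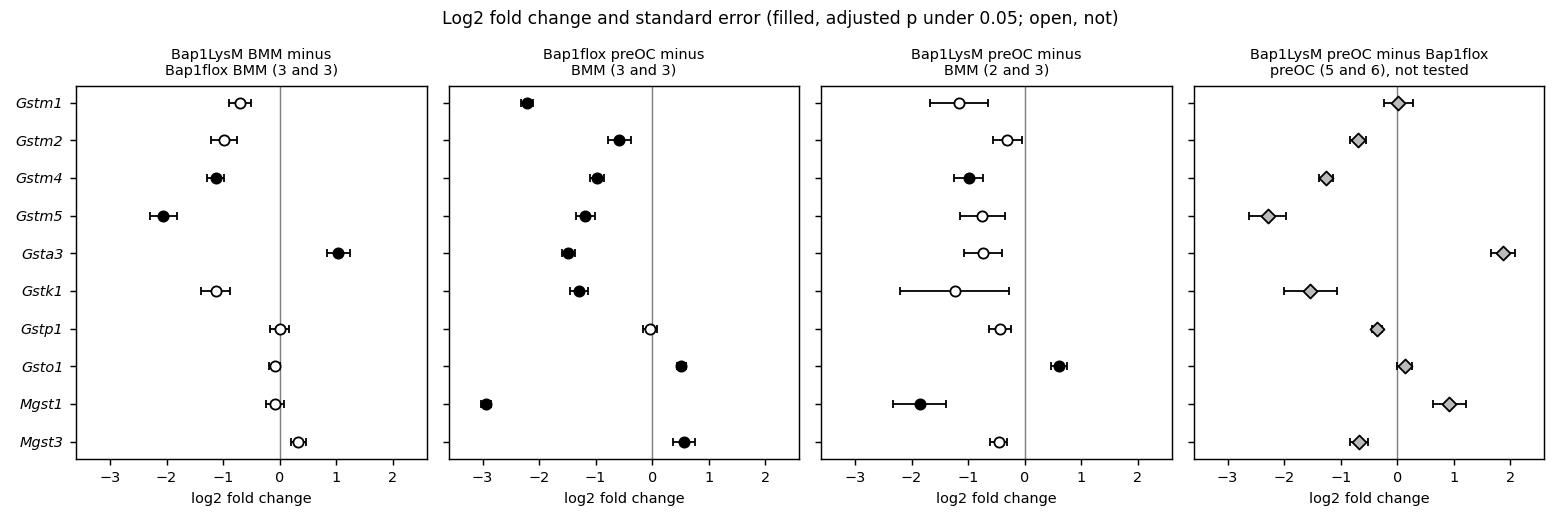
Log2 fold change with its standard error for the 10 genes in 4 comparisons. Filled points passed at an adjusted p under 0.05, open points did not, and grey diamonds were not tested. Mgst1 falls by 2.94 with RANKL in Bap1flox cells, the largest value of the 3 tested panels.

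The comparison of Bap1LysM with Bap1flox preOCs is given as a description only, because 6 members (Gsta3, Gstm5, Gstk1, Gstm4, Gstm2 and Mgst3) were chosen from its result. Of the 10 genes, 7 had groups that did not overlap, where 9.68% of the 12929 genes did, and nothing is read from that count. Relative to a 1.5-fold change, 5 were further below and 2 further above. Gstm1 was at 0.02, the member nearest 0. The members nearest to 1.5-fold were Gstm2 (1.61-fold lower) and Mgst3 (1.61-fold lower) on one side and Gstp1 (1.28-fold lower) on the other.

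Gstm5 in Bap1flox preOCs had a lowest, median and highest level of 3.10, 3.33 and 3.71 CPM, and in the 5 Bap1LysM preOCs it was at 1.34, 0.815, 0.457, 0.336 and 0.491 CPM. The log2 fold change was -2.29, and it was -1.64 in the first set of libraries (replicates 1 to 3) and -2.97 in the second (replicates 4 to 6). The difference was thus larger in the second set, and the highest Bap1LysM value was that of the library labelled Bap1LysM 1. Gstm4 had 6.55, 7.68 and 7.99 CPM in Bap1flox and 3.63, 2.77, 3.08, 3.27 and 2.79 CPM in Bap1LysM preOCs, a log2 fold change of -1.26, with -1.15 and -1.35 within the sets. Its mean in Bap1LysM preOCs was 3.11 ± 0.360 CPM (SD, n = 5).

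Gsta3 had a lowest, median and highest level of 11.4, 13.2 and 22.5 CPM in Bap1flox preOCs and was at 56.5, 30.5, 59.1, 60.4 and 58.2 CPM in Bap1LysM preOCs. The log2 fold change was 1.87, with 1.77 and 1.89 within the sets. Its Bap1LysM libraries lay above the Bap1flox libraries in preOCs, as in BMMs, but Gsta3 was chosen from this preOC comparison and nothing is read from it. Gstk1 had 2.54, 3.14 and 4.16 CPM and was at 2.53, 0.148, 1.15, 0.896 and 0.828 CPM, a log2 fold change of -1.54, with -1.06 and -1.92 within the sets. The library labelled Bap1LysM 1 nearly reached the lowest Bap1flox library, and without it the log2 fold change was -2.10.

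Gstm2 had 10.04, 11.5 and 14.5 CPM in Bap1flox and 8.11, 5.43, 8.49, 7.06 and 7.22 CPM in Bap1LysM preOCs, a log2 fold change of -0.69. Mgst3 had 32.02, 42.1 and 57.2 CPM and 28.0, 26.7, 31.2, 28.1 and 21.1 CPM, a log2 fold change of -0.68. Between BMM genotypes its log2 fold change had the other sign, at 0.33, and did not pass (edgeR adjusted p = 0.166). Gstp1 had 29.3, 32.5 and 35.4 CPM and 23.3, 23.8, 28.4, 28.9 and 22.3 CPM, a log2 fold change of -0.36.

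Mgst1 had 18.2, 20.5 and 43.7 CPM in Bap1flox and 56.5, 19.3, 53.2, 58.5 and 48.0 CPM in Bap1LysM preOCs, a log2 fold change of 0.92. The groups overlapped through Bap1LysM 2 and Bap1flox 6. Gstm1 had 97.9, 114 and 189 CPM and 199, 61.9, 127, 146 and 105 CPM, and Gsto1 had 123, 143 and 163 CPM and 112, 140, 178, 175 and 182 CPM. Both overlapped widely, with log2 fold changes of 0.02 and 0.13. Without the library labelled Bap1LysM 1 the log2 fold change was -2.70 for Gstm5, -1.33 for Gstm4, 1.84 for Gsta3, -0.74 for Gstm2, -0.70 for Mgst3, -0.33 for Gstp1, 0.84 for Mgst1, -0.21 for Gstm1 and 0.22 for Gsto1. Gstm1 changed sign between the sets, at 0.35 in the first and -0.24 in the second. The mitochondrial share of reads was 0.481% to 1.074% in libraries numbered 1 to 3 and 2.364% to 5.264% in those numbered 4 to 6, so the sets also differed in this share. It was also higher in the Bap1LysM than in the Bap1flox library of each of the 5 preOC pairs, at 1.021% against 0.667%, 1.074% against 0.481%, 3.383% against 2.844%, 3.714% against 2.364% and 5.264% against 3.639%, and its part in the preOC values was not tested. Neutrophil marker genes summed to 62.1 to 181 CPM in Bap1flox and 170 to 607 CPM in Bap1LysM preOCs, of 9 genes, of which Ly6g was at 0 in 3 Bap1flox libraries, and the macrophage markers to 3710 to 4930 CPM and 3770 to 5810 CPM. B and plasma cell marker genes summed to 5.87 to 13.5 CPM in Bap1flox and 10.5 to 45.1 CPM in Bap1LysM preOCs. Their sum was higher in the Bap1LysM library of each of the 5 pairs, which does not hold for every single gene of the list. Their part in the preOC values was not tested.

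The mu genes were also read beside their neighbours. The 7 mu genes span chr3:107895821-108044894. Gstm6 and Gstm7 did not pass the filter. Gstm3 did, with 4.80 ± 0.749 CPM in Bap1flox BMMs (SD, n = 3) and 3.17 ± 1.24 CPM in Bap1LysM BMMs (SD, n = 3), a log2 fold change of -0.61 (edgeR adjusted p = 0.277), and with RANKL in Bap1flox cells it fell by 2.26 on the log2 scale (edgeR adjusted p = 7.94e-05). Among the 22 other genes within 200 kb, 7 were tested between BMM genotypes and none passed in edgeR's test, with log2 fold changes from -0.62 for Amigo1 to 0.08 for Gnai3. Their median was -0.22. At an unadjusted p under 0.05 there were 3 (Amigo1, Ampd2 and Atxn7l2), and 1 passed in DESeq2 and 0 in voom. With the replicate block 1 passed, Csf1 at a log2 fold change of -0.57 (edgeR adjusted p = 0.0124). With RANKL in Bap1flox cells, Ampd2, the nearest on the far side of Gstm4, rose by 0.61 on the log2 scale (edgeR adjusted p = 0.000595), whereas Cyb561d1 fell by 0.76 (edgeR adjusted p = 0.000818), and Csf1, on the near side of Gstm5, had -0.92 (edgeR adjusted p = 0.0501, and 0.0102 with the block). Ahcyl1 was at -0.06, and Gnai3 and Atxn7l2 fell by 0.36 and 0.38 (edgeR adjusted p = 0.00697 and 0.0383). The start of Gstm5 overlaps the gene 4933431E20Rik, and 3.64% of the windows of 150 bases along its transcript also occur there.

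**Figure D5:**
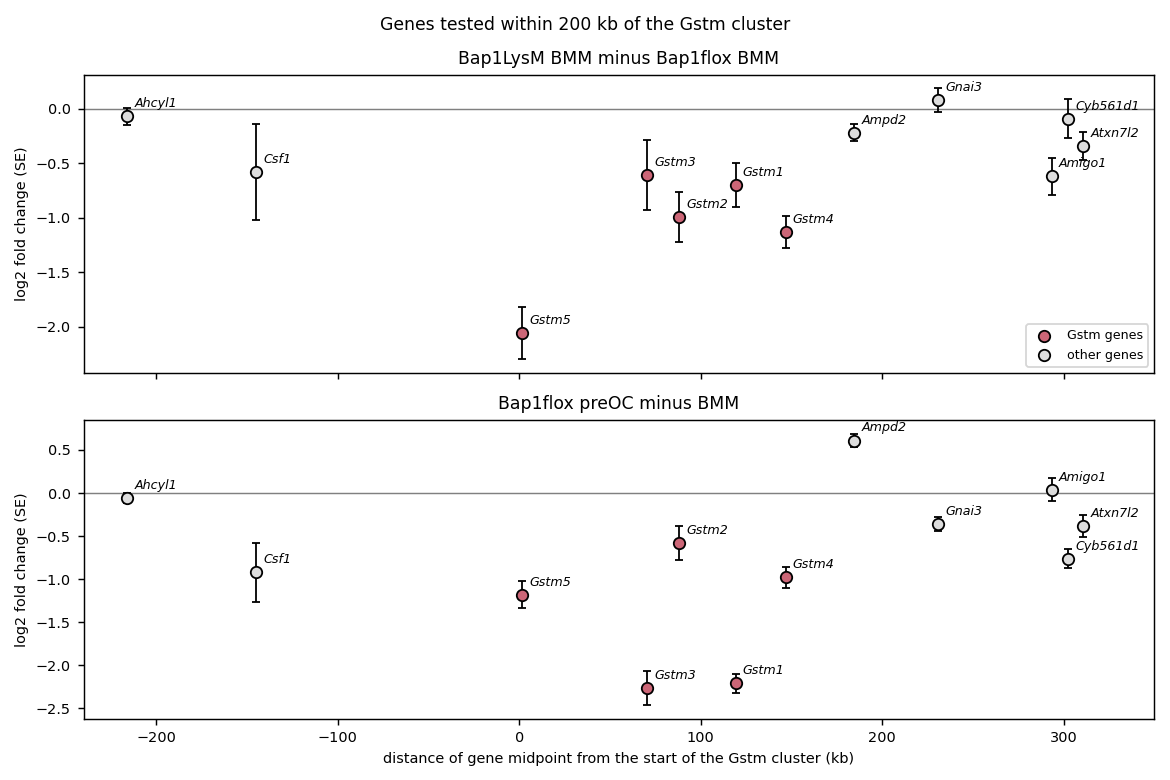
Log2 fold change with its standard error for each gene tested within 200 kb of the mu cluster, against the distance of the gene's midpoint from the start of the cluster in kb. In BMMs Gstm5 is at -2.06 and Gstm4 at -1.13, while the 7 other genes lie between -0.62 and 0.08.

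The 17 other transferase genes, listed with earlier results known, included 9 that passed the filter in BMMs and in the Bap1flox RANKL comparison. Of the 9, Gstt1 reached the filter in BMMs through Bap1flox libraries alone. Of the other 8, 1 was lower between BMM genotypes, namely the theta gene Gstt3, at 7.87, 6.70 and 7.03 CPM in Bap1flox and 3.05, 3.37 and 3.27 CPM in Bap1LysM BMMs, a log2 fold change of -1.16 (edgeR adjusted p = 0.0162). Gstt2 was at -0.92, Gstt1 at -1.74, Gstcd at 0.71, Mgst2 at -0.35, Gstz1 at 0.05, Gstp2 at 0.02 and Hpgds at 0.01, and these did not pass. With the replicate block Gstt2 passed as lower too (edgeR adjusted p = 0.0239).

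With RANKL, the theta gene Gstt3 rose in both genotypes. Of the list, 4 of 9 rose and 2 fell in Bap1flox cells, with a median log2 fold change of 0.29. The shares of all genes called, against which these and the list counts that follow are to be read, were 31.7% higher and 32.9% lower with RANKL in Bap1flox cells, 11.4% and 8.2% in Bap1LysM cells, and 1.31% and 4.01% between BMM genotypes. Gstt1 went from 1.24, 1.95 and 3.29 CPM to 22.9, 33.0 and 41.1 CPM, a log2 fold change of 3.88 (edgeR adjusted p = 0.000136). Gstcd rose by 1.60, Mgst2 by 1.13 and Gstt3 by 0.46 (edgeR adjusted p = 0.000117, 0.00322 and 0.00872), and Gstt2 was at 0.29 (edgeR adjusted p = 0.111). Hpgds, the sigma-class enzyme that makes prostaglandin D2, fell by 2.06 (edgeR adjusted p = 1.74e-05). In Bap1LysM cells Gstt1 went from 0.195, 0.682 and 1.05 CPM to 30.7 and 49.5 CPM, and Gstt3 and Gstt2 rose by 1.71 and 1.53 (edgeR adjusted p = 0.0125 and 0.0379). Gstt4 had 0, 2 and 2 reads in the Bap1LysM BMM libraries and 61 and 72 reads in preOCs 1 and 2. Gstt1 and Gstt4 reached the filter through the preOCs alone, and in the fit with no filter their edgeR adjusted p was 5.53e-06 and 0.000294. Gstcd rose by 0.88 and Hpgds fell by 1.62 (edgeR adjusted p = 0.0364 and 0.0498), so that 3 rose and 1 fell of the 7 genes that did not need their higher group to reach the filter. Of the 3 other genes of the membrane-bound family, Ptges, which makes prostaglandin E2, rose by 1.83 in Bap1flox and 1.80 in Bap1LysM cells, and Alox5ap, the 5-lipoxygenase activating protein, fell by 1.69 and 1.63. Ltc4s, leukotriene C4 synthase, fell by 1.27 in Bap1flox cells (edgeR adjusted p = 0.0186) and was at -0.02 in Bap1LysM cells.

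Of 12 genes of glutathione synthesis and recycling tested, 1 was lower in Bap1LysM BMMs, Oplah (5-oxoprolinase), at a log2 fold change of -1.26 (edgeR adjusted p = 0.0225). With the replicate block 2 were higher, Gsr (glutathione reductase) at 0.44 and Slc3a2, the partner chain of Slc7a11, at 0.41 (edgeR adjusted p = 0.0214 and 0.040). With RANKL 1 rose and 5 fell in Bap1flox cells, and 2 rose and 3 fell in Bap1LysM cells. Ggt5, a gamma-glutamyltransferase that cleaves glutathione conjugates such as leukotriene C4, fell by 4.41 and 1.96 (edgeR adjusted p = 2.84e-05 and 0.0278). Slc7a11, the cystine importer, rose by 0.93 and 2.08 (edgeR adjusted p = 0.0134 and 0.00976), and Chac1, which degrades glutathione, rose by 2.32 in Bap1LysM cells (edgeR adjusted p = 0.0188) and was at 1.22 in Bap1flox cells (edgeR adjusted p = 0.145). Of 16 genes tested for peroxidases, glutaredoxins, peroxiredoxins and the thioredoxin reductase Txnrd1, Gpx1 alone passed in BMMs (log2 fold change 0.61, edgeR adjusted p = 0.0499), and with the replicate block 2 were higher and 2 lower, Gpx3 among the latter (-0.67, edgeR adjusted p = 0.0167). With RANKL in Bap1flox cells 6 rose and 6 fell, among them Gpx1 at 1.24, Glrx5 at 1.21, Prdx5 at -1.12 and Gpx3 at -2.21, and in Bap1LysM cells 4 rose and 2 fell.

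Of 13 genes of conjugate export and mercapturate formation tested, Abcg2, an efflux transporter, was lower in Bap1LysM BMMs (-0.78, edgeR adjusted p = 0.030), and with the replicate block Dpep2 and Acy3 were as well (edgeR adjusted p = 0.0218 and 0.0487). Abcc3, which exports conjugates, fell with RANKL by 2.75 in Bap1flox cells and 2.55 in Bap1LysM cells (edgeR adjusted p = 1.31e-05 and 0.0406), in lists of 2 rises and 4 falls and of 1 rise and 2 falls. Acy1, an aminoacylase, rose by 2.42 in Bap1flox and 2.43 in Bap1LysM cells (edgeR adjusted p = 4.63e-06 and 0.0271), and Lap3, an aminopeptidase, by 0.68 in Bap1flox cells (edgeR adjusted p = 0.00056). Of 9 regulators, Ahr, the aryl hydrocarbon receptor, was lower in Bap1LysM BMMs, at 4.61, 4.40 and 4.36 CPM against 19.7, 8.54 and 11.8 CPM (log2 fold change -1.58, edgeR adjusted p = 0.0387). Nfe2l2, which encodes the NRF2 activator of antioxidant genes, was at -0.20 (edgeR adjusted p = 0.224). With the replicate block its relative Nfe2l1 was higher, at 0.30 (edgeR adjusted p = 0.0431). With RANKL 7 of the 9 fell in Bap1flox cells, among them Nfe2l2 by 0.83 and its competitor Bach1 by 0.98 (edgeR adjusted p = 7.97e-05 and 0.00207), and 1 rose. In Bap1LysM cells 2 rose, Maff by 1.82 (edgeR adjusted p = 0.0445) and Ahr by 0.88 (edgeR adjusted p = 0.0298), and 2 fell. Over these lists and the other transferases, and leaving out genes that reached the filter only through their higher group, 13 of 55 genes were higher and 11 lower with RANKL in Bap1LysM cells. None of the 55 passed without Bap1LysM BMM 2 or without BMM 3, 4 were higher and 1 lower without BMM 1, and 2 higher and 3 lower without preOC 2. Without the preOC library labelled Bap1LysM 1, 12 were higher and 16 lower, and without both libraries of that label 16 were higher and 20 lower. Between BMM genotypes 1 of 60 was higher and 4 lower, and none passed without Bap1flox BMM 2, Bap1flox BMM 3 or Bap1LysM BMM 2.

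The pattern of each member over the 17 libraries was set beside that of 13380 expressed genes, as Pearson's r of log2 CPM. These points share libraries, culture and genotype, and r is a description. The nearest genes were Smim14 and Os9 for Gstm1 (0.983 each), Nol3 and Ptpn21 for Gstm2 (0.912 and 0.898), Lztr1 and Slc25a23 for Gstm4 (0.978 and 0.977), Fam234b and Msrb2 for Gstm5 (0.987 and 0.982), L3mbtl3 and Pcdha11 for Gsta3 (0.970 and 0.961), and C1rl and Slc13a2 for Gstk1 (0.956 and 0.945). They were Hnmt and Fra10ac1 for Gsto1 (0.990 and 0.989), Slc40a1 and Adap2 for Mgst1 (0.993 and 0.989), Dcps and Cdk2 for Mgst3 (0.847 and 0.845), and Rtl8a and Fcna for Gstp1 (0.785 and 0.784). Mgst3 and Gstp1 thus had no gene as near as the others did. Among the members themselves, r was 0.93 for Gstm4 and Gstm5, 0.91 for Gstm1 and Mgst1, 0.87 for Gstm4 and Gstk1 and 0.75 for Gsta3 and Mgst1, and it was lowest for Gstm1 and Gsto1, at -0.73.

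Gstp1 is the member whose count is least certain. Of the windows of 150 bases along its first transcript, 41.8% also occur in Gstp2 or Gstp-ps, and reads that matched more than 1 place were not counted, so its level is a lower estimate. None of the 150-base windows of the other members but Gstm5 occurred in another gene. At 75 bases, 14.8% of the windows of Gstm1 did, in Gstm2-ps1, Gstm3 and Gm8834 most often, 11.9% of those of Gstm5, and 3.13% of those of Gstm2.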

How the data were processed

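RNA was selected by oligo-dT and sequenced as paired reads of 150 bases. Per the labels and the study's methods, the authors aligned reads to GRCm38 (Ensembl) with STAR 2.5.1a and counted the reads that fell on 1 gene at 1 place with featureCounts 1.4.6-p5; the strand setting is not given in the sources used here. The deposited files hold these counts with CPM and RPKM computed by the authors from them, and counts were the input here. The members and lists were chosen with earlier results of these data known.

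The 355 ribosomal RNA genes were left out, and symbols were taken from GENCODE by gene identifier. Genes with CPM above 1 in at least 2 libraries (4 of 11 for preOCs) were fitted in edgeR 4.0.16 (TMM factors, quasi-likelihood, two-sided, R 4.3.3), with Benjamini-Hochberg adjustment and a threshold of 0.05; the scripts were tested on simulated data. Alternatives were limma 3.58.1 (voomWithQualityWeights, the study's choice), DESeq2 1.42.0, RLE and upper-quartile factors, no filter, all 17 libraries in 1 fit, the replicate block, library sets and leaving out each library. Libraries with the same number departed from their groups together, with correlations of 0.31 to 0.50 in BMMs, 0.23 to 0.37 for RANKL in Bap1flox and 0.36 to 0.71 in preOCs. The main fits and their p-values left this pairing out. It entered only through the replicate block, given as an alternative. The study describes its preOC libraries as biologically independent. For BMMs the sources used here do not say whether replicates came from separate mice, so their p-values measure the spread between these libraries, which may be technical. In Bap1LysM BMMs that spread also holds a difference in Lyz2, at 9516 CPM in library 1 against 35.2 and 31.3 CPM in libraries 2 and 3. The source of this difference was not tested. Genes named besides the members were Bap1, Lyz2, other transferases past the filter, at most 4 per list by size of change among those that passed, the 2 nearest patterns per member, and genes within 200 kb of the mu cluster.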

Additional observations from a re-analysis of the deposited data

Results flagged for a closer look

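Among 20 groups of 5 or 6 preOC libraries (10 genes in each genotype), 4 had a highest or lowest library whose gap to the next, as a share of the group's range, was above Dixon's 95% critical value. Chance alone passes this in about 1 in 20 groups, but these groups are not independent, since the 4 values come from 2 libraries and 2 genes. Gsta3 was at 22.5 CPM and Mgst1 at 43.7 CPM in Bap1flox preOC 6, each the highest of its group. Gsta3 was at 30.5 CPM and Mgst1 at 19.3 CPM in Bap1LysM preOC 2, each the lowest of its group. Bap1flox preOC 6 also had the highest macrophage marker sum of its group, 4930 CPM, and Bap1LysM preOC 2 had the lowest of its group, 3770 CPM, with the highest osteoclast marker sum of all libraries, 16500 CPM. The part of these in the Gsta3 and Mgst1 levels was not tested.

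Mgst3 had fold changes of opposite sign under the same contrast, with no overlap between the libraries of each comparison (preOC replicates 1 to 3 for RANKL). Of the 3 that were tested, RANKL in Bap1flox cells passed. Between genotypes its log2 fold change was 0.33 in BMMs and -0.68 in preOCs, and with RANKL it was 0.56 in Bap1flox and -0.46 in Bap1LysM cells. These are 2 readings of the same 4 groups, and the difference was not tested.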

How the results depend on the processing

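The number of the 10 members that passed between BMM genotypes, 3 in edgeR, was 6 with voomWithQualityWeights, 6 with DESeq2, 5 with no filter, 6 with the replicate block, and 0 to 3 with 1 library left out. Over all genes the count went from 693 to 1772, 2065 and 2107 with voom, DESeq2 and the block, and ran from 4 to 756 with 1 library left out. For RANKL in Bap1flox cells the count of 9 ran from 7 to 9 with 1 library left out and from 8 to 9 under the other settings, Gstm2 being lost with upper-quartile factors. For RANKL in Bap1LysM cells the count of 3 was 1 with voom, 8 with all 17 libraries in 1 fit, 6 without both replicate 1 libraries (chosen after seeing the data) and 0 to 4 with 1 library left out, the counts of 4 and 6 including Gstk1, which reached the filter there through BMMs alone. Over all genes it went from 2550 to 1667 with voom, 3996 with DESeq2, 6593 with all 17 libraries and 4112 without both replicate 1 libraries, and ran from 63 to 3336 with 1 library left out. The cause of these shifts was not tested. No value that passed turned direction under any of these settings. Among the members, the pairing changed the calls of Gstm1, Gstm2 and Gstk1 in BMMs and none for RANKL in Bap1flox cells, and among 60 other transferase and glutathione genes it took the BMM calls from 1 higher and 4 lower to 5 and 9. For RANKL in Bap1LysM cells the block also left out BMM 3, and on those 2 against 2 libraries it took the count over all genes from 164 to 2638. The count of 7 preOC differences of 1.5-fold was 6 without Bap1flox preOC 1 and 7 otherwise. Gstm5 in preOCs, at -2.29, was at -2.97 with voom. Depth limits Gstk1 and Gstm5 in Bap1LysM preOCs, with 6 to 128 and 18 to 68 reads a library, where fold changes are coarse.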
